A study of Mus musculus with 12 samples.

Results

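The regions described here are stretches of open chromatin that appeared on a cholestatic diet in control hepatocytes and were absent from the peaks kept for Fbxl5-deleted hepatocytes, where every library kept the same number of peaks. They were chosen by the measured peak strength itself. The 12 peak lists were cut to one common length, just under the 137004 peaks of the shortest, by fold enrichment. Peaks left after this cut that shared at least 1 bp were merged, and a region became a member if all 3 floxed control DDC libraries held it and none of the other 9 did. This left 483 members of 292576 merged regions. Of the merged regions, 138502 were held in at least 3 libraries and were tested, and the members were 0.349% of those. The lowest kept fold enrichment was 2.54 to 2.80 in Fbxl5-deleted DDC, 2.59 to 2.84 in floxed control DDC, 2.29 to 2.47 in Fbxl5-deleted standard and 1.43 to 2.46 in floxed control standard libraries, so the number of kept peaks was matched and not their height. What the rule used, presence and height in the 12 libraries, is given as description.

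ATAC-seq maps accessible chromatin with a transposase that places adapters in DNA free of nucleosomes, and it was applied to liver hepatocytes obtained by 2-step collagenase perfusion. Fbxl5-deleted mice (labelled Alb-Cre/FBXL5F/F) carried floxed Fbxl5 alleles and a Cre recombinase under the albumin promoter, which is active in hepatocytes. Floxed controls (FBXL5F/F) carried the same alleles without Cre. Each genotype was given 0.1% DDC or a standard diet for 2 weeks, with 3 mice and 1 library per mouse in each of the 4 groups. The sources used here give neither the ages nor the part of Fbxl5 that Cre removes.

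FBXL5 is the iron-sensing subunit of a ubiquitin ligase that marks iron regulatory protein 2 for degradation, so hepatocytes without it load iron. DDC (3,5-diethoxycarbonyl-1,4-dihydrocollidine) leads to block of ferrochelatase, porphyrin plugs in small ducts and cholestasis with a ductular reaction. Distal open regions of this kind often act as enhancers, which bind transcription factors and can lie far from the gene they regulate, and start regions are where transcription begins.

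A peak at a gene end of Fbxl5 was present in all 12 libraries, 3 of 3 in every group, and none of the 6 regions over the gene was a member. Start windows of hepatocyte identity genes, taken as 250 bases before to 50 after a start, held a peak at 24 to 25 of 27 genes in Fbxl5-deleted DDC, 23 to 25 in floxed control DDC, 25 in Fbxl5-deleted standard and 24 to 25 in floxed control standard libraries. Alb was open in 12 of 12 libraries. Starts of genes known from other liver cells were open as well. Macrophage and myeloid starts were open at 3, 5 and 3 of 15 genes in Fbxl5-deleted DDC replicates 1 to 3, 6, 8 and 3 in floxed control DDC, 1, 1 and 0 in Fbxl5-deleted standard, and 3, 0 and 1 in floxed control standard libraries, while the Kupffer cell genes Clec4f, Vsig4, Timd4 and Marco had no open start in any library. Stellate cell and matrix starts were open at 5 to 6 of 15 genes in Fbxl5-deleted DDC, 5 in floxed control DDC, and 2 to 3 in either standard-diet group. Not every list rose on DDC. Sinusoidal endothelial starts were open at 3 to 4 of 13 genes in either DDC group, 4 in Fbxl5-deleted standard and 4 to 5 in floxed control standard libraries. For biliary and ductular starts it was 7 to 8 of 17, 6 to 9 in floxed control DDC, and 7 to 8 in either standard-diet group. For lymphocyte starts it was 1 to 2 of 13, 1 to 3, 0 and 1 in the same order of groups. More nuclei of a type and more open chromatin per nucleus cannot be told apart in such bulk libraries, and the part of these markers in the member regions was not tested. Full lists held 168961 to 191700 peaks in Fbxl5-deleted DDC, 179709 to 202874 in floxed control DDC, and 137004 to 151794 in floxed control standard libraries. Fbxl5-deleted standard replicates 1 and 3 stood apart with 261938 and 260515 peaks, against 151086 in replicate 2.

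Only 10 of 466 members on chromosomes with start windows lay over a start, and 8 of these starts carry a gene name of their own. Of these, 5 are shown, to give the letters in which a member meets a gene start. Runx1 is a transcription factor of blood cell development, Nlrp3 the inflammasome sensor, and Cfp properdin of the alternative complement pathway. Fam43b is the CpG-rich contrast, and Dnmt3aos is an antisense transcript at the DNA methyltransferase gene Dnmt3a. Each run is 300 bases, 5′ to 3′ on the gene's strand, from RefSeq on GRCm38.p6, the assembly of mm10. Capitals mark matches to the searched motifs on either strand: CCAAT (NF-Y) in Runx1, Nlrp3 and Fam43b, GGGGCGGGG (SP/KLF) in Fam43b, TGACNNNGC (antioxidant response element core) in Cfp, and TGACTCA (AP-1) in Dnmt3aos.
Runx1: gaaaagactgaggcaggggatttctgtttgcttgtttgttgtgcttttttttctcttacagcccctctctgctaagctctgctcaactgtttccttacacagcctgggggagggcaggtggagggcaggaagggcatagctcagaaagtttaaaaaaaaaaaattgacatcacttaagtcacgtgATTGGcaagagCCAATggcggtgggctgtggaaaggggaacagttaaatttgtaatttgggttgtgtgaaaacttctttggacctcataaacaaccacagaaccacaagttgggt
Nlrp3: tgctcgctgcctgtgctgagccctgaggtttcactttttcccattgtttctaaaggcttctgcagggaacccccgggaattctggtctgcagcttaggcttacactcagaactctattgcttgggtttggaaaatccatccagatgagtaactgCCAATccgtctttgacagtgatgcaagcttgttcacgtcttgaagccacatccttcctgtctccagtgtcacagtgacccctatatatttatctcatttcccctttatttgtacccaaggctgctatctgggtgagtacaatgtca
Cfp: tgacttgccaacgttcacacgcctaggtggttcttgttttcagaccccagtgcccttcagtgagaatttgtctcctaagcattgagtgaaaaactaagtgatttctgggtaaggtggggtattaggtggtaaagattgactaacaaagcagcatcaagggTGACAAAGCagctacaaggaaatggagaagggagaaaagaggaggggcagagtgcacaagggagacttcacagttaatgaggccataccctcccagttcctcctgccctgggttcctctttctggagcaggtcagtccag
Fam43b: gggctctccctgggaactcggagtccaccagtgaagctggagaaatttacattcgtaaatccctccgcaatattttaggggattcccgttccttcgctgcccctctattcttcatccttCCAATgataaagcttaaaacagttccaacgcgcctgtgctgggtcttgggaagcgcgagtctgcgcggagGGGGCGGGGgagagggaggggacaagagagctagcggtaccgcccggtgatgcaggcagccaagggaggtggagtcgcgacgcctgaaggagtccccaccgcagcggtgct
Dnmt3aos: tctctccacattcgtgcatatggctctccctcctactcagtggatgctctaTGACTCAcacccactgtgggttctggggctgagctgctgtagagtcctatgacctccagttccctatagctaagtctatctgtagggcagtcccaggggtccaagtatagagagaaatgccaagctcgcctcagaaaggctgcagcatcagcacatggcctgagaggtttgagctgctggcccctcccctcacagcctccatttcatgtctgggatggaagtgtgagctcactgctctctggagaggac
The windows stand at chr16:92826025-92826324 (minus strand) for Runx1, chr11:59541319-59541618 (plus) for Nlrp3, chrX:20931506-20931805 (minus) for Cfp, chr4:138396409-138396708 (minus) for Fam43b, and chr12:3862195-3862494 (minus) for Dnmt3aos. The Nlrp3 window lay wholly inside its member, which covered 300 bases, while the others covered 237 bases at Runx1, 220 at Cfp, 209 at Fam43b and 224 at Dnmt3aos.

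The start windows of members were poor in G and C next to windows over tested regions. Their median was 47.3% over the 10 windows, against 60.7% over 15731 windows that meet a tested region. They held a median of 2 CpG, against 20 in those windows, with Fam43b at 20 and Runx1 at 2. Medians below those of the 15731 windows were not particular to members. The 30 windows over regions of both genotypes on DDC had medians of 53.3% and 5.5 CpG. Over all 32585 windows both medians also lay below those of the 15731. The difference between members and these sets was not tested. CCAAT occurred in 4 of the 10 windows and in 37.6% of all 32585. The AP-1 motif occurred in 2 of the 10 and in 5.23% of all windows, GGAATG (TEAD) in 1 of the 10 and 14.6%, GGGGCGGGG in 1 and 11.5%, and TGACNNNGC in 1 and 12.4%. In the 30 windows over regions of both genotypes on DDC, CCAAT occurred in 10, AP-1 in 5, TGACNNNGC in 7, and TEAD and GGGGCGGGG in 3 each. With so few windows, these counts describe the windows and no more. In the 10 member windows no match was found for CRE (TGACGTCA), ETS (CCGGAAG), HNF4 (CAAAGTCCA), C/EBP (TTGCGCAA), FOXA (TGTTTAC), or the longer FXR, CTCF and HNF1 motifs, whose letters are then not in these windows.

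Control gains were held in Fbxl5-deleted DDC libraries in graded numbers. Of 3497 regions held in all 3 floxed control DDC libraries and no standard-diet library, 483 (13.8%) were held in 0 Fbxl5-deleted DDC libraries, 938 (26.8%) in 1, 1036 (29.6%) in 2, and 1040 (29.7%) in all 3. Members are the first of these 4 classes. Fbxl5-deleted DDC replicates 1, 2 and 3 held 1809, 2115 and 2206 of the 3497, and 178, 316 and 444 of them were held in that replicate alone. In the mirrored set, 1759 regions were held in all 3 Fbxl5-deleted DDC libraries and no standard-diet library, of which 83 (4.72%) were in 0 floxed control DDC libraries, 212 (12.1%) in 1, 424 (24.1%) in 2 and 1040 (59.1%) in all 3. The like sets of the standard diet had 67 regions for Fbxl5-deleted alone and 275 for floxed control alone, so at this list length the control set was the larger on either diet. With all deposited peaks the standard-diet order turned round, to 220 for Fbxl5-deleted alone and 96 for floxed control alone, while on DDC there were 95 for Fbxl5-deleted alone and 863 for floxed control alone. The rule asks for fewer libraries of a group once one is left out, and these counts move with that. The 83 became 499, 483 and 538 without Fbxl5-deleted DDC replicate 1, 2 and 3, 137, 190 and 140 without floxed control DDC replicate 1, 2 and 3, and 125 without Fbxl5-deleted standard replicates 1 and 3, where there were 537 members. On the standard diet the 67 became 584, 707 and 475 without Fbxl5-deleted replicate 1, 2 and 3, 10478 without replicates 1 and 3, and 117 without floxed control replicate 2. The 275 became 1103, 947 and 905 without floxed control standard replicate 1, 2 and 3, 531 without Fbxl5-deleted standard replicate 2, and 503 without its replicates 1 and 3. On DDC the 483 came from the group with the longer median full list, 194821 peaks against 170157 in Fbxl5-deleted DDC, though the ranges above overlapped. On the standard diet the 275 came from the group with the shorter median list, 145293 peaks against 260515. The part of list length in these counts was not tested. Members were also rare next to regions found in fewer control libraries: 2497 were held in just 2 floxed control DDC libraries and 22360 in just 1, with no library of another group.

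**Figure D1:**
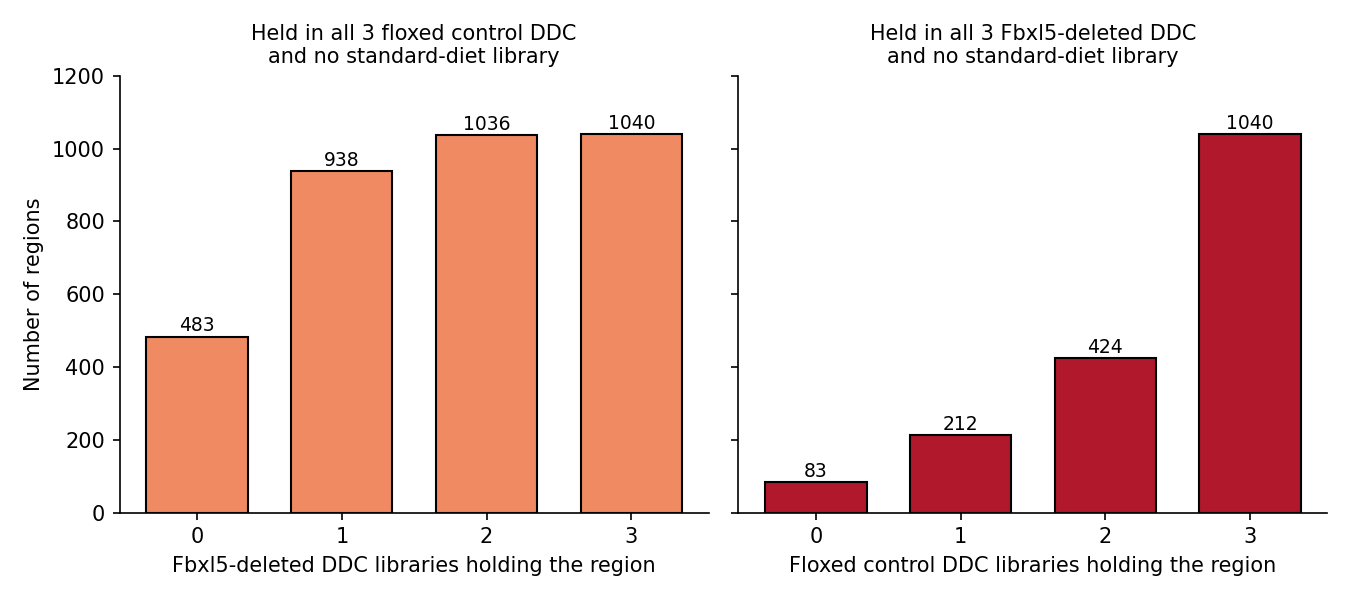
Number of regions (y axis) by how many libraries of the other genotype on DDC held them (x axis), for regions held in all 3 floxed control DDC (left) or all 3 Fbxl5-deleted DDC libraries (right) and in no standard-diet library. The bar at 0 on the left is the 483 members, and the bar at 0 on the right is 83 regions.

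Members were low peaks. Their fold enrichment, the height of a peak over the caller's local background in the same library, had a median of 3.38 in floxed control DDC replicate 1 (2.84 to 8.7), 3.68 in replicate 2 (2.71 to 12.3) and 3.02 in replicate 3 (2.59 to 5.61). Regions of both genotypes, held in all 6 DDC libraries and no standard-diet library, had medians of 4.62, 5.69 and 4.29 in the same libraries. At the median member, 21.4%, 27.4% and 13.5% of the kept peaks of replicates 1, 2 and 3 were lower. Values at such heights repeat: 153 of the 483 members (31.7%) had 3.02 in replicate 3, 97 (20.1%) had 3.06 in replicate 2 and 110 (22.8%) had 2.9 in replicate 1. Members were narrow as well, with a median width of 295 bp (174 to 901) against 470 bp for tested regions, and 464 members (96.1%) had a single summit against 55.0% of tested regions. This shape was not particular to members. Median widths were 255 bp for Fbxl5-deleted DDC alone, 268 bp for floxed control standard alone and 267 bp for Fbxl5-deleted standard alone. A single summit was found at 98.8%, 93.8% and 88.1% of these sets.

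**Figure D2:**
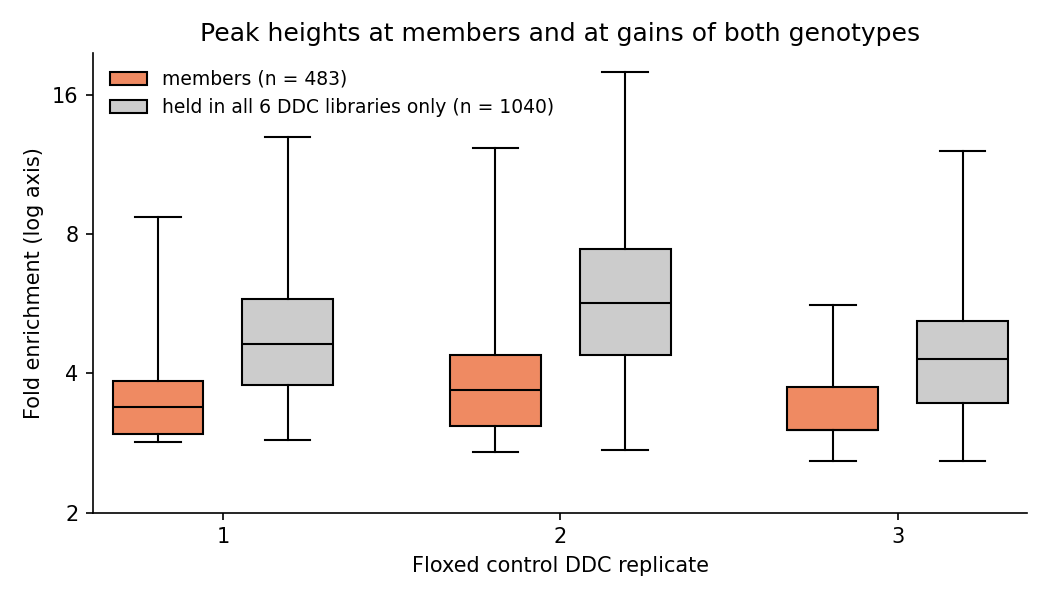
Fold enrichment (log axis) in the 3 floxed control DDC libraries at the 483 members (orange) and at the 1040 regions held in all 6 DDC libraries and no standard-diet library (grey). Boxes span the quartiles with a line at the median, and whiskers the lowest and highest value; member medians are 3.38, 3.68 and 3.02.

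The 12 members whose lowest floxed control DDC value was highest show the range of genes involved. The first lies over 2200002J24Rik (chr7:30707474-30707732) and had a weak peak of 2.4 and 2.37 in Fbxl5-deleted DDC replicates 2 and 3 and none listed in replicate 1, against 6.11, 5.34 and 5.14 in the 3 floxed control DDC libraries. Fbxl5-deleted standard replicate 3 listed it at 1.72, and the other standard-diet libraries did not list it. A member in Robo2, a receptor for Slit guidance cues (chr16:74639881-74640192), had 2.41 and 2.34 in Fbxl5-deleted DDC replicates 1 and 2 and was not listed in replicate 3, against 5.8, 5.25 and 4.31 in floxed control DDC libraries. A member in Tmeff2, a transmembrane protein with follistatin-like domains (chr1:50949448-50949703), was listed in no Fbxl5-deleted DDC library, against 4.35, 5.25 and 4.31 in floxed control DDC libraries. These values stand apart in control DDC libraries because the rule chose them so. A member 9081 bp from Pltp, the phospholipid transfer protein of lipoprotein metabolism, had 2.34 and 2.46 in Fbxl5-deleted DDC replicates 2 and 3 against 4.35, 4.81 and 4.31 in floxed control DDC libraries. A member in Frmd4b, a FERM domain scaffold protein, had 2.41 and 2.34 in Fbxl5-deleted DDC replicates 1 and 2 against 4.27, 6.42 and 3.88 in floxed control DDC libraries, and lay 404 bp from a gain of both genotypes. The one in Atp8b4, a P4-type ATPase gene, was listed in none of the other 9 libraries and had 7.73, 4.38 and 3.88. The remaining 6 lay near Dusp22, Smndc1, Olfr16 and Mrps30, in Mroh9, and at chr1:165046573-165046963 with no protein-coding gene within 50 kb.

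**Figure D3:**
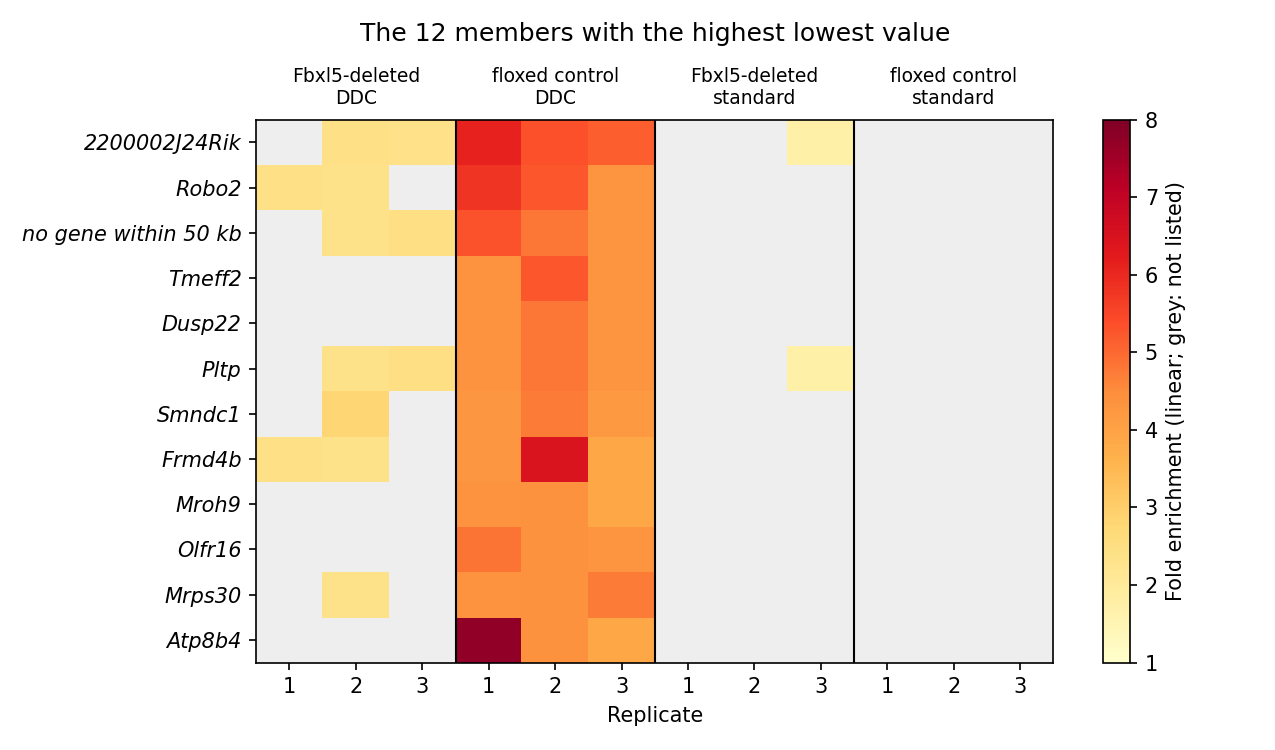
Fold enrichment (colour, linear) in each library (columns, by group and replicate) for the 12 members with the highest lowest value in floxed control DDC (rows, by gene). Grey cells are libraries that do not list the region; 7 of the 12 rows hold at least 1 weak peak in an Fbxl5-deleted DDC library.

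Peaks below the common list length are a measure that the rule did not use, and they were found at many members in Fbxl5-deleted DDC libraries. They lay at 71 members (14.7%) in replicate 1, 144 (29.8%) in replicate 2 and 110 (22.8%) in replicate 3. In Fbxl5-deleted standard replicates 1, 2 and 3 they lay at 10.6%, 1.86% and 14.5%, and in floxed control standard replicates at 1.45%, 1.24% and 0%. The lowest Fbxl5-deleted DDC value therefore sat just above the highest Fbxl5-deleted standard value. The mean was 22.4% ± 7.56 in Fbxl5-deleted DDC and 8.97% ± 6.46 in Fbxl5-deleted standard libraries (SD, n = 3 each), a difference of 13.5 percentage points (two-sided exact permutation test, p = 0.1). Against 0.897% ± 0.784 in floxed control standard libraries (SD, n = 3) the difference was 21.5 points (two-sided exact permutation test, p = 0.1). Those 3 lists had just 14794, 8293 and 4 peaks below the cut, against 31961 to 54700 in Fbxl5-deleted DDC libraries. List length thus left little room for another order, and the 0% of replicate 3 was all but fixed. With 3 libraries against 3 this test cannot go below 0.1, so neither difference could pass 0.05. Without Fbxl5-deleted standard replicates 1 and 3, replicate 2 alone was left to compare and the difference was 20.3 points. With members taken from the 100000 strongest peaks the differences were 37.9 points against Fbxl5-deleted standard and 47.7 against floxed control standard libraries, and where a weak peak had to cover 50% of the member they were 6.83 and 10.2 points.

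How many weak peaks a list holds differs between libraries, from 4 in floxed control standard replicate 3 to 124938 in Fbxl5-deleted standard replicate 1, so the same share was taken over all other regions that a library did not hold. It was 7.7%, 12.8% and 7.84% in Fbxl5-deleted DDC replicates 1 to 3, 14.2%, 3.55% and 14.4% in Fbxl5-deleted standard, and 3.66%, 2.03% and 0% in floxed control standard replicates. Members exceeded it 1.91, 2.32 and 2.9 times in Fbxl5-deleted DDC libraries. In Fbxl5-deleted standard libraries the ratio was 0.742, 0.525 and 1.0, and in floxed control standard replicates 1 and 2 it was 0.396 and 0.612. The ratio averaged 2.38 ± 0.50 in Fbxl5-deleted DDC and 0.757 ± 0.24 in Fbxl5-deleted standard libraries (SD, n = 3 each; two-sided exact permutation test, p = 0.1, the smallest possible). Against floxed control standard libraries at 0.504 ± 0.153 (SD, n = 2) the same exact permutation test gave p = 0.2, again the smallest possible. The differences of the ratio, 1.62 and 1.87, were 1.05 and 1.22 with members from the 100000 strongest peaks, where the differences of the plain share were larger. The comparison set matters, so other regions held in exactly 3 libraries, but not in the one examined, were also taken. Weak peaks lay at 15.4%, 25.6% and 14.9% of them in Fbxl5-deleted DDC replicates. The shares were 16.6%, 6.84% and 21.5% in Fbxl5-deleted standard, and 6.75%, 3.89% and 0% in floxed control standard replicates. Against these regions, members stood at about the same share in Fbxl5-deleted DDC replicate 1, above it in replicates 2 and 3, and below it in each standard-diet library that had any.

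**Figure D4:**
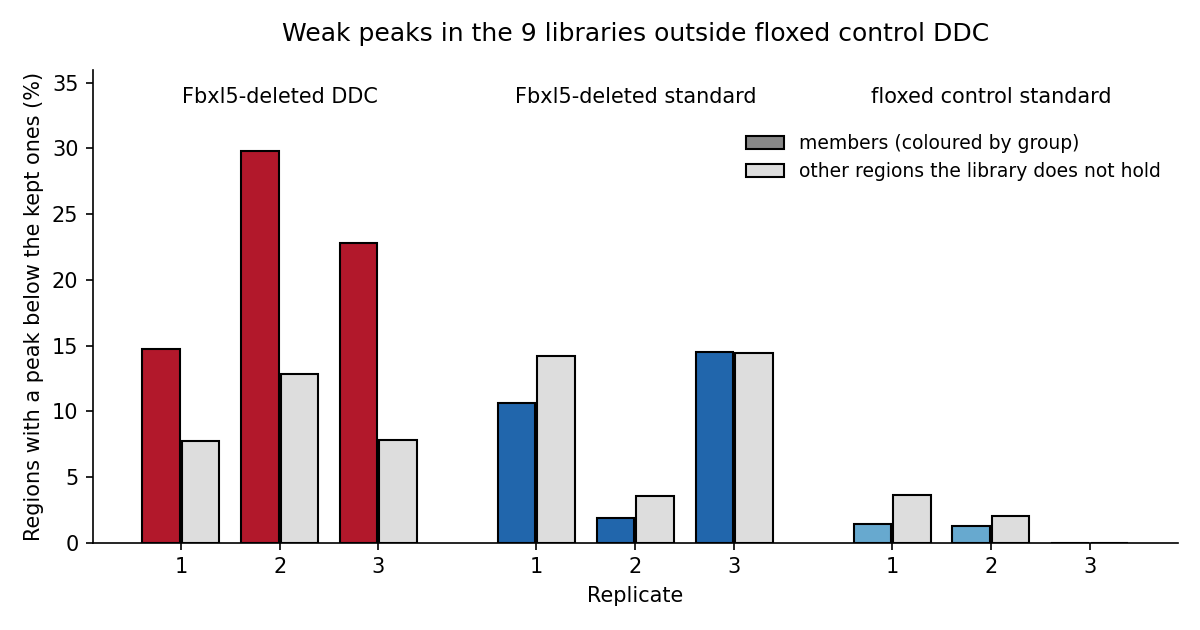
Share of regions (%) with a peak in the full list that ranks below the common list length, for members (coloured by group) and for other regions the library does not hold (grey), in 9 libraries grouped by genotype and diet. Members are above the grey bars in the 3 Fbxl5-deleted DDC libraries (14.7%, 29.8% and 22.8%) and at or below them elsewhere, apart from 14.5% against 14.4% in Fbxl5-deleted standard replicate 3.

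Member by member, 255 (52.8%) had a weak peak in at least 1 Fbxl5-deleted DDC library: 186 in 1, 68 in 2 and 1 in all 3. At least 1 of the 6 standard-diet libraries had one at 121 members (25.1%). Such counts over several libraries were not made for other regions, so they have no background here, unlike the shares per library above. The lists of the 2 diets also differ in length, so 52.8% and 25.1% are not to be set against each other. No peak was listed in any of the 9 libraries at 183 members (37.9%). Absence from a list means that no peak passed the caller's threshold, not that the chromatin was closed. The single member seen in all 3 lies 1560 bp from Dusp5, a phosphatase that restrains ERK signalling (chr19:53543369-53544077). Its fold enrichment was 2.23, 2.8 and 2.46 in Fbxl5-deleted DDC and 3.56, 3.67 and 3.88 in floxed control DDC libraries. Fbxl5-deleted standard replicate 3 had 2.29 there, and the other 5 standard-diet libraries listed nothing. Ordered by their lowest floxed control DDC value, which the rule used, 58.4% of the upper 161, 52.2% of the middle 161 and 47.8% of the lower 161 had one in Fbxl5-deleted DDC libraries. In standard-diet libraries the shares were 27.3%, 23.6% and 24.2%. No test of these shares was made. At the 83 regions of Fbxl5-deleted DDC alone, the full lists of floxed control DDC replicates 1 to 3 had weak peaks at 21.7%, 30.1% and 28.9%. Other regions not held in these libraries had them at 10.7%, 14.5% and 13.4%. For other regions held in exactly 3 libraries the shares were 21.3%, 30.5% and 27.3%, so the 83 stood near the share of regions held as often.

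The threshold runs through a dense field of peaks. Just inside it lay members near Zc3h3, Ppp1cb, Babam2, Actr3b and Rheb, whose weakest floxed control DDC peak ranked 136880, 136787, 136773, 136692 and 136679. Just outside lay, among others, regions at Nxn, Dhrs9 and Zbtb7c and one with no gene within 50 kb, at ranks of 137096 to 137240. In all, 758 regions were held in 2 of the 3 floxed control DDC libraries and in none of the other 9, with the other floxed control DDC library listing it below the threshold. With the 100000 strongest peaks per library 284 regions met the rule, and these overlapped just 58 members (12% of members, 20.4% of the 284). With all deposited peaks 863 did, overlapping 182 members (37.7% of members, 21.1% of the 863). Leaving out floxed control DDC replicate 1, 2 or 3 gave 1203, 1051 or 1728, and leaving out Fbxl5-deleted DDC replicate 2 or 3 gave 804 or 930, since the rule then asks for fewer libraries.

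In limma fits on rank-based log2 values over all 138502 tested regions, 6773 regions (4.89%) were called higher on DDC in floxed controls and 3289 (2.37%) in Fbxl5-deleted mice (Benjamini-Hochberg adjusted p under 0.05). Lower on DDC were 2944 (2.13%) in floxed controls and 1087 (0.785%) in Fbxl5-deleted mice. At the members these fits read the values that chose them, so the counts, 0 members called in Fbxl5-deleted mice, where all are absent by the rule, and 242 called higher in floxed controls, are a description and test nothing. Over all regions, those called higher in Fbxl5-deleted mice were 2186, 1560 and 2144 without Fbxl5-deleted DDC replicate 1, 2 and 3, and 817 without Fbxl5-deleted standard replicates 1 and 3. Those called higher in floxed controls were 3761 without DDC replicate 2, 4162 without standard replicate 2 and 4011 without standard replicate 3. Those called lower in Fbxl5-deleted mice were 501, 481 and 487 without DDC replicate 1, 2 and 3 and 294 without standard replicates 1 and 3, and those called lower in floxed controls were 1487, 1226 and 1878 without DDC replicate 1, 2 and 3 and 1957, 1572 and 1749 without standard replicate 1, 2 and 3. The genotype comparison on DDC, Fbxl5-deleted minus control, called 0 regions of all tested (0%) by limma, with 8317 regions (6.0%) at an unadjusted p under 0.05. The difference of the diet effects likewise called 0 regions (0%), with 7969 regions (5.75%) at an unadjusted p under 0.05. Members were chosen on these same values, so nothing is read from the fit about a genotype difference at them.

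Regions around the members were not used by the rule, and they were called higher on DDC somewhat more often than all tested regions in both genotypes. There were 928 tested non-member regions within 10 kb of a member, and 377 members (78.1%) had at least 1. In Fbxl5-deleted mice 36 of the 928 (3.88%) were called higher and 7 (0.754%) lower, and in floxed controls 71 (7.65%) were called higher and 12 (1.29%) lower, to be read against the percentages of all tested regions above. The median diet difference of these neighbours was 0.065 log2 in Fbxl5-deleted mice and 0.068 in floxed controls, with 0.0079 and 0.0028 over all tested regions. No test of the neighbours as a list was made. In Fbxl5-deleted mice the share called higher was 2.51% of neighbours and 1.62% of all regions without standard replicate 1, 1.66% and 1.16% without DDC replicate 2, and 1.44% and 0.613% without standard replicates 1 and 3. In floxed controls it was 4.4% of neighbours and 3.35% of all regions without standard replicate 1, 4.59% and 3.09% without standard replicate 2, 4.38% and 2.97% without standard replicate 3, and 4.48% and 2.81% without DDC replicate 2. Neighbours called higher in both genotypes numbered 23, which is 63.9% of those called in Fbxl5-deleted mice and 32.4% of those called in floxed controls. Over all tested regions these shares were 66.9% and 32.5%. The genotype comparison on DDC and the difference of the diet effects called 0 neighbours by limma, with 70 and 56 at an unadjusted p under 0.05. For the single nearest neighbour of each of the 377 members, at a median gap of 2568 bp, 19 (5.04%) were called higher in Fbxl5-deleted mice and 40 (10.6%) in floxed controls, and the difference was above 0 at 63.4% and 61.0%, against 52.3% and 50.3% of all tested regions.

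**Figure D5:**
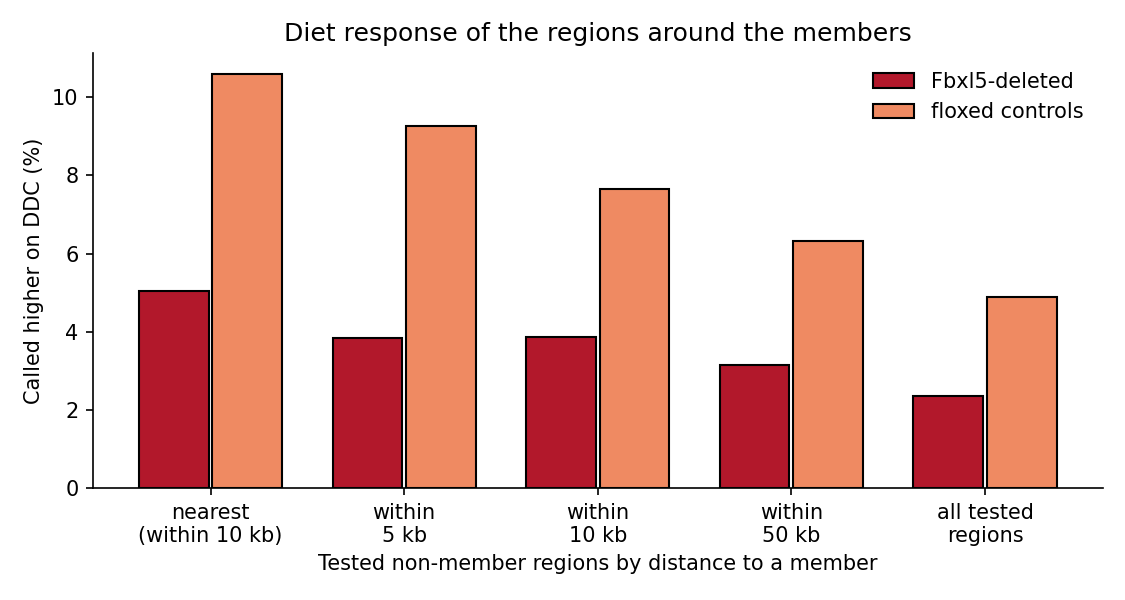
Percent of tested non-member regions called higher on DDC (limma, adjusted p under 0.05) in Fbxl5-deleted mice (red) and floxed controls (orange), for the nearest neighbour of a member, for neighbours within 5, 10 and 50 kb, and for all tested regions. Within 10 kb the bars stand at 3.88% and 7.65%, and over all regions at 2.37% and 4.89%.

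Of the 23 neighbours called higher in both genotypes, the smaller diet difference was highest near Slc18a1 (1.57 log2), in Pcdh12 (1.51) and in Zfp1 (1.44). Another 3 are given here, chosen after their values were seen, and the 23 were not sorted by cell type. One lies in Pld4, a nuclease of endosomes of immune cells (chr12:112764004-112764651), 1561 bp from a member. Its rank-based log2 level was 3.46, 3.68 and 3.72 in Fbxl5-deleted DDC, 3.70, 3.73 and 3.95 in floxed control DDC, and 2.54, 2.32 and 1.96 in Fbxl5-deleted standard libraries, while floxed control standard replicate 1 had 1.65 and replicates 2 and 3 did not hold it. All 6 DDC libraries were above all standard-diet libraries. The diet difference on this scale was 1.35 ± 0.22 in Fbxl5-deleted mice and 2.40 ± 0.22 in floxed controls (SE, limma adjusted p = 0.00131 and 3.94e-06). Another lies in Ptk2b, which encodes the calcium-responsive kinase PYK2 (chr14:66257567-66258153), 709 bp from a member. Its levels were 3.04, 3.48 and 3.56 in Fbxl5-deleted DDC and 3.50, 3.52 and 3.72 in floxed control DDC libraries. In Fbxl5-deleted standard replicates 2 and 3 they were 2.02 and 1.64, with no kept peak in replicate 1, and in floxed control standard libraries 2.39, 2.04 and 2.24. The diet groups did not overlap, and the difference was 1.72 ± 0.23 in Fbxl5-deleted mice and 1.36 ± 0.23 in floxed controls (limma adjusted p = 0.000352 and 0.00108). A region in Glis3, a transcription factor of islet development (chr19:28636005-28636554), lay 9763 bp from a member and had 4.29, 4.38 and 4.06 in Fbxl5-deleted DDC, 4.34, 4.59 and 4.24 in floxed control DDC, 2.73, 2.57 and 3.43 in Fbxl5-deleted standard and 2.76, 3.27 and 2.51 in floxed control standard libraries. It too was higher in every DDC library, with a diet difference of 1.33 ± 0.21 in Fbxl5-deleted mice and 1.54 ± 0.21 in floxed controls (limma adjusted p = 0.00112 and 0.000117). Pld4 and Ptk2b are prominent in myeloid cells, whose marker starts were open at 3 to 5 of 15 genes in Fbxl5-deleted DDC, 3 to 8 in floxed control DDC, 0 to 1 in Fbxl5-deleted standard and 0 to 3 in floxed control standard libraries, and their part was not tested.

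By position, members were mostly distal. Inside the span of a protein-coding gene lay 264 (54.7%), against 61.4% of tested regions, and 80 (16.6%) had no such gene within 50 kb, against 12.1%. Over a start window lay 2.15%, against 9.41% (5.09% of members with the 100000 strongest peaks), and within 1 kb of a start 18 (3.86%), against 12.1%. The median distance to a start was 24312 bp, against 18424 bp for tested regions. Regions of both genotypes were placed much alike, with 51.4% in a gene span, 2.56% over a start window and a median of 22890 bp. Within 10 kb of a gain of both genotypes lay 20 members (4.14%), against 1.73% of tested regions, 1.2% of the 83 regions of Fbxl5-deleted DDC alone and 1.45% of the 275 of floxed control standard alone. Every chromosome from 1 to 19 and X held members, from 0.218% of tested regions on chromosome 6 to 0.464% on chromosome 1.

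Members were spread thinly over genes. The 403 members with a gene within 50 kb fell to 392 genes, and 11 genes, named here after their values were seen, had 2: Atp8b4, Dlg2, Exoc4, Ezr, Frmd4b, Hecw2, Mgat4a, Phc2, Riok3, Tgfbr3 and Tmeff2. None had more. Ezr, for ezrin, which ties membrane to actin, had 1 member with fold enrichments of 5.31, 6.13 and 3.02 in floxed control DDC libraries (chr17:6748815-6749581), listed in Fbxl5-deleted standard replicates 1 and 3 at 2.45 and 2.29. Its other member (chr17:6778964-6779188) had 2.53 in Fbxl5-deleted DDC replicate 1 against 3.26, 3.24 and 3.18 in floxed control DDC libraries. The tested non-member regions of the 392 genes numbered 4809, of which 153 (3.18%) were called higher on DDC in Fbxl5-deleted mice and 310 (6.45%) in floxed controls, against 2.38% and 4.73% of all tested non-member regions.

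Across 24 gene lists of liver biology, 19 of 6292 tested regions were members (0.302%), close to the 0.349% of all tested regions. Hepatocyte identity genes had 0 of 395, and bile acid synthesis (219), drug metabolism (342), periportal (225), inflammation (307), cell cycle (232), ER stress (233), biliary (255), stellate (112), macrophage (72) and lymphocyte (41) genes likewise had 0. In the iron and heme lists there were 1 of 435 and 1 of 178. A member in Acvr1, the BMP receptor ALK2 upstream of hepcidin (chr2:58549013-58549249), was listed in none of the other 9 libraries, with 5.14, 3.65 and 2.77 in floxed control DDC. A member in Hmox2, the constitutive heme oxygenase (chr16:4740077-4740402), was also listed in none of the other 9, with 3.38, 3.06 and 3.45. Neither gene had another tested region called on DDC in either genotype, over 29 regions at Acvr1 and 6 at Hmox2.

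The antioxidant list had 1 member, 25747 bp from the thioredoxin reductase gene Txnrd1 (3.38, 5.25 and 4.31 in floxed control DDC, none elsewhere). Bile acid transport and receptor genes had 2 of 332, in the vitamin D receptor gene Vdr, which also senses lithocholic acid, and in the organic anion carrier gene Slco2b1. Both were listed in none of the other 9 libraries, with 3.06, 4.0 and 3.36 at Vdr and 2.9, 3.94 and 3.45 at Slco2b1 in floxed control DDC. Cytoskeleton and junction genes had 4 of 428 (0.935%). Among them were one 37089 bp from Vcl, the vinculin gene, and one in Cdh2, which encodes N-cadherin. The Vcl member had 2.46 in Fbxl5-deleted DDC replicate 3 alone, against 3.86, 3.94 and 3.02 in floxed control DDC, and that at Cdh2 (3.86, 3.5 and 3.02) was listed in no other library. TGF-beta signalling genes had 3 of 288 (1.04%): 1 near the ligand gene Tgfb2 (3.86, 3.06 and 3.45 in floxed control DDC, none elsewhere) and 2 near the co-receptor gene Tgfbr3. Near Tgfbr3, one was listed in Fbxl5-deleted DDC replicate 3 at 2.46 against 3.86, 3.94 and 3.45 in floxed control DDC, and the other in Fbxl5-deleted DDC replicate 2 at 1.74 against 3.28, 2.95 and 4.91. Other single members lay in Nf2, the merlin tumour suppressor upstream of YAP, and in Lpin1, Slc1a2 and Vwf. Those assigned to Jag2, a Notch ligand, Adm and Dusp5 lay 12523, 41278 and 1560 bp from these genes.

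Outside the members, the calls at tested regions of the same lists are set beside those at all 138019 tested non-member regions, of which 2.38% were called higher on DDC in Fbxl5-deleted mice and 4.73% in floxed controls. Of 285 TGF-beta regions, 8 (2.81%) were called higher on DDC in Fbxl5-deleted mice and 12 (4.21%) in floxed controls. Of 424 cytoskeleton regions, 8 (1.89%) were in Fbxl5-deleted mice and 16 (3.77%) in floxed controls. Of 434 iron handling regions, 5 (1.15%) were called higher and 4 lower in Fbxl5-deleted mice, and 14 (3.23%) higher and 6 lower in floxed controls. Hepatocyte identity regions had 3 of 395 higher (0.759%) in Fbxl5-deleted mice and 9 (2.28%) in floxed controls. Macrophage regions had 2 of 72 (2.78%) in Fbxl5-deleted mice and 8 (11.1%) in floxed controls, and stellate regions 6 of 112 (5.36%) in Fbxl5-deleted mice and 11 (9.82%) in floxed controls. The difference of these shares between the genotypes was not tested.

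Of the members over gene starts, those at Runx1 and Nlrp3 had the highest lowest values. The Runx1 member (chr16:92825852-92826261) had 2.8 in Fbxl5-deleted DDC replicate 2 and nothing listed in replicates 1 and 3, against 4.18, 4.02 and 4.31 in floxed control DDC libraries, and no standard-diet library listed it. At Nlrp3 (chr11:59541309-59541661) the values were 2.47 in Fbxl5-deleted DDC replicate 2 alone, against 3.47, 3.37 and 4.58 in floxed control DDC libraries. Cfp had 2.46 in Fbxl5-deleted DDC replicate 3 alone, against 2.9, 3.94 and 3.02. Fam43b had 2.41 and 2.46 in Fbxl5-deleted DDC replicates 1 and 3, against 4.83, 3.06 and 3.88. At Phf11a and at Dnmt3aos no other library listed a peak, with 2.9, 3.5 and 3.88 and with 2.96, 2.94 and 2.75 in floxed control DDC. Runx1, Nlrp3 and Cfp, picked by name from the 10 members over starts, are well known from myeloid cells. The macrophage and myeloid list itself had 0 members among 72 tested regions. The open myeloid starts given above were 3, 5 and 3 in Fbxl5-deleted DDC against 6, 8 and 3 in floxed control DDC libraries. The part of myeloid cells in these members was not tested. None of the 18 other tested regions of Runx1 or of the 6 of Nlrp3 was called on DDC in either genotype.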

How the data were processed

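Per the submitters' processing notes, the tools were MACS2, Bowtie2, fastp, Picard, SAMtools, deepTools and bedtools, with build mm10. Their versions, settings and order, and any shift of read positions, are not stated in the sources used here. The authors deposited 1 peak list per library, so peaks were called per sample. In the deposited lists the fold enrichment is a ratio of a peak's height to the caller's background, and the −log10 p and −log10 q are the caller's own. The lists hold no counts, so depth is unknown, and no interval that needs it is given. The deposited summit offset was used for nothing.

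Lines with equal coordinates were joined, and chromosomes 1 to 19 and X were kept. Each list was cut to the same number of strongest peaks by fold enrichment (ties by −log10 p, then position) and merged at 1 bp. In Fbxl5-deleted standard replicates 1 and 3 this falls among many equal weak peaks. A tested region was held in at least 3 libraries. Its value was its rank in the library mapped to the mean log2 fold enrichment distribution over the 12, with absent regions at 1.27, so a change common to all regions would be missed and differences at absent regions have no true size. The members are tested through 1 group alone.

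limma 3.58.1 in R 4.3.3 (eBayes with trend and robust) was fitted to 12 libraries and 4 group means, with Benjamini-Hochberg adjustment over all tested regions. For the shares of members with weak peaks, exact permutation tests over libraries (two-sided, SciPy 1.17.1) were used. The pairing of replicate numbers was checked on the deviations from group means. Regions went to the shortest protein-coding gene they overlap, otherwise to the nearest within 50 kb (RefSeq table, GRCm38.p6). Exons and introns are not known here. Start windows and sequences are from the same source; chromosome 18 was not used for them. Of 628 listed genes, 627 matched. Members, lists and tests were chosen with earlier results of these data known. Named were the 12 members with the highest lowest control value, up to 3 per gene list, members over starts, the one with weak peaks in all 3 Fbxl5-deleted DDC lists and those next to the threshold; gene symbols of Gm, Rik or LOC form were counted but, beyond the first 12, not named. The rule finder and the fit were tested on simulated data. Alternatives changed the number and order of kept peaks, the overlap, the filter, the libraries, the replicate block, the variance model and the neighbour distance. Python 3.11.15, numpy 2.4.6, pandas 2.3.3 and matplotlib 3.10.9 were used.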

Additional observations from a re-analysis of the deposited data

How the results depend on the processing

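The 483 members depended on the threshold: 284 regions met the rule with the 100000 strongest peaks, 863 with all deposited peaks, and 841 where a peak had to cover 50% of a region, against 433 ordered by −log10 p and 539 at a −log10 q of at least 2. Leaving out 1 library gave 509 to 1728, with 1728 without floxed control DDC replicate 3, since the rule then asks for fewer libraries. Of the 483, 336 (69.6%) were found again ordered by −log10 p, 372 (77.0%) with 50% coverage, and 95 (19.7%) at a −log10 q of at least 2. The weak peak difference stayed above 0 in every alternative run. Without 1 library it was 9.1 to 18.9 percentage points against Fbxl5-deleted standard and 16 to 27.6 against floxed control standard libraries. The full floxed control standard lists held 137004 to 151794 peaks, against 168961 to 191700 in Fbxl5-deleted DDC libraries. List length thus left little room for another sign against floxed control standard libraries in any run.

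Regions called higher on DDC in floxed controls (6773) numbered 3347 without a filter, 12762 with values from all deposited peaks and 3761 to 7239 without 1 library. In Fbxl5-deleted mice (3289) they numbered 1498 without a filter, 817 without Fbxl5-deleted standard replicates 1 and 3, which leaves 1 library assumed to vary like the other groups, and 1560 to 3094 without 1 library. Without those replicates the weak peak difference had the same sign. The 242 members called higher in floxed controls, on the values that chose them, became 7 without a filter, 457 with all deposited peaks, 148 ordered by −log10 p, 160 without Fbxl5-deleted standard replicates 1 and 3, 160 without the trend and robust settings, and 58 to 225 without 1 library. Members drop out where regions had to be held in at least 6 libraries or a floxed control DDC library was left out, so no count was had there. The genotype comparison on DDC called 1 region ordered by −log10 p and 0 in the other fits. Over 21 settings the share of neighbours called higher exceeded that of all regions in 21 in Fbxl5-deleted mice and in 21 in floxed controls.

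Same-numbered libraries did not deviate together (correlations of −0.024 to 0.056 over 18 pairs). With the replicate block, 6554 regions were called higher in floxed controls, and the exact permutation test within numbers gave p = 0.25 for the weak peak difference of 13.5 points, the smallest it can give.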
